A study of Mus musculus with 4 samples.

Results

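The 10 genes described here encode transcription factors that pattern the limb, namely Pitx1, Tbx4, Isl1, Shox2, Meis1, Meis2, Msx1, Lhx9, Prrx1 and Pax9. They were taken as a list of gene symbols, without a rule on measured values. Earlier results of these data were known when the list was chosen. All 10 were found among the 32288 features counted. A further 51 limb patterning genes, of which 50 had a feature, were followed beside them. The study labelled Gli1-expressing cells and their progeny in the mouse limb and arrested cartilage cells with p21, a cyclin-dependent kinase inhibitor encoded by Cdkn1a. Hindlimbs were dissociated at E14.5 (days of embryonic development), and sorted tdTomato-positive (tdT+) and tdTomato-negative (tdT-) cells were profiled by single-cell RNA-seq of 3′ ends in 4 libraries, 1 of each fraction from each of 2 collections. The labels name femur and tibia as the tissue taken, while the study's text describes the entire hindlimb, so how much of the foot was included is not settled.

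All embryos carried Gli1CreER, which allows the R26LSL-tdT reporter to be switched on by tamoxifen in Gli1-expressing cells, together with TigreTRE-p21. Only Pan-Cart-p21MOE embryos also carried Col2a1-rtTA, in which the Col2a1 promoter drives a doxycycline-dependent activator of TRE-p21 in cartilage. The controls therefore shared the reporter, the silent p21 allele, doxycycline from E12.5 (1 mg/ml in water, and in food) and tamoxifen at E13.5 (120 µg/g). Each library mixed Pan-Cart-p21MOE and control cells of opposite sex. Cells were assigned to a condition by their expressed sex genes, because collection 1 held Pan-Cart-p21MOE males with control females and collection 2 held the reverse. This gave 2 embryo pools per condition, so that the condition was balanced over sex but each pool rested on few embryos. Both sorted fractions of a pool came from the same embryos. The main tests by fraction and condition took 8 sums of cells, by library and condition, as separate and had no pool term. Their p-values therefore measured the spread between sums, and by condition only 2 pools stood against 2.

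In the early limb bud, Pitx1 and Tbx4 are known for setting hindlimb character, and Isl1 for starting the hindlimb bud. Meis1 and Meis2 mark the part nearest the body, Shox2 acts in the upper and middle segments, and Hoxa11 and Hoxd11 then Hoxa13 and Hoxd13 mark successively more distal segments. Prrx1 is a factor of loose limb mesenchyme, Msx1 and Lhx9 act in progenitors of the growing bud, and Pax9 in distal and skeletal precursors.

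After filters on depth, doublets and sex calls, 2768 cells were kept, 1782 of Pan-Cart-p21MOE and 986 of control embryos, and 3724 other cells without a sex call were left out of these groups. Median depth was 16417 to 27252 unique molecular identifiers (UMIs, counted transcripts) per kept cell in the 4 libraries. The cells fell into 19 clusters, of which 11 were named from marker genes and 8 stayed unnamed. The 10 factors were not among the genes used for clustering. Chondrocyte-like clusters held 917 cells, other mesenchymal clusters 1755 and muscle-like or myeloid immune-like clusters 96. All 8 unnamed clusters were counted as other mesenchymal, including cluster 16, whose best marker score was for proliferative chondrocytes. Unnamed clusters held the cartilage collagen gene Col2a1 at 431 to 3649 CPM and chondrocyte-like ones at 5662 to 9740 CPM. Unnamed clusters 16, 18 and 19 were shallow, came almost wholly from 1 library of collection 2 each, and held 78, 33 and 16 Pan-Cart-p21MOE cells but 1, 0 and 0 control cells. Of all barcodes, 40 occurred in more than 1 library, and of the kept ones 2. Levels are given as CPM, the usual scaling of UMI counts by the total of the cells summed, and since 3′ counting detects genes with unequal efficiency, levels were compared between cells and not between genes.

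The coordinates of the genes place Pitx1 on chromosome 13 (55825051 to 55836192) and Isl1 on the same chromosome (116298281 to 116309689), Tbx4 on chromosome 11 (85886422 to 85916097) and Meis1 also on 11 (18879817 to 19018985), all in the GRCm38 build with the GENCODE annotation. Meis2 lies on chromosome 2 (115863064 to 116065839), Shox2 on 3 (66971727 to 66981771), Msx1 on 5 (37820485 to 37824583) and Pax9 on 12 (56691767 to 56712822). Lhx9 (138825186 to 138848577) and Prrx1 (163245119 to 163313710) both lie on chromosome 1. The upstream sequences of 3 genes are shown, Isl1 and Meis1, which were highest in the same cell cluster, and Prrx1, which was highest in another, from 250 to 101 bases before the RefSeq start of the gene (GRCm38.p6), with the letters of a searched motif in capitals. They overlapped no annotated exon.
Isl1, chr13:116309789-116309938, minus strand: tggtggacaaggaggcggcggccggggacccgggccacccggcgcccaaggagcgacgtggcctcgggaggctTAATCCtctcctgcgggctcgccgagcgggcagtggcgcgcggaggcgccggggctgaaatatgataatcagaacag
Prrx1, chr1:163313751-163313900, minus strand: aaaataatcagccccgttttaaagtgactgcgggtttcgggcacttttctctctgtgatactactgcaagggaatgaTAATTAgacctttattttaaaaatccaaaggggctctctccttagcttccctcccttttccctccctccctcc
Meis1, chr11:19019070-19019219, minus strand: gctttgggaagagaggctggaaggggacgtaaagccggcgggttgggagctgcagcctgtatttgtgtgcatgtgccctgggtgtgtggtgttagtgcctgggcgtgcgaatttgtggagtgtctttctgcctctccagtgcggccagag
The Isl1 window held the PITX motif TAATCC, starting at -177, which 3.96% of all 32851 windows of that length held on either strand. The Prrx1 window held the homeodomain core TAATTA, starting at -173, found in 3.24% of windows, and the Meis1 window held none of the 4 motifs searched. Among the 9 members with a RefSeq window, the MEIS motif TGACAG, found in 10.1% of all windows, occurred in Lhx9 and Pax9, and the T-box motif AGGTGT, found in 7.66%, in Pax9. A match of letters is a description of the window and not a binding site.

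The labelled tissue was checked against Pitx1 and Tbx4. Pitx1, a homeodomain factor that turns on the hindlimb programme, was counted in every library, at 195 and 189 CPM in the tdT+ and tdT- libraries of collection 1 and at 179 and 147 CPM in those of collection 2. Tbx4, a T-box factor of the hindlimb bud, stood at 51.3 and 49.8 CPM in collection 1 and at 45.1 and 39.2 CPM in collection 2. Tbx5, the T-box factor of the forelimb, was present at 6.4, 14.3, 10.03 and 13.51 CPM in the same libraries. Its highest level among clusters of more than 16 cells was 35.2 CPM in the resting chondrocyte-like cluster 13, of which it was a leading gene, and clusters 3, 9 and 15 held 0.53 CPM or less.

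Pitx1 varied strongly between clusters. It was highest in the small unnamed cluster 10 (38 cells, led by Lrrc7 and Tnn) at 398 CPM, followed by the unnamed cluster 8 (led by Crabp1 and Otor) at 297 CPM and the connective tissue fibroblast-like cluster 1 at 260 CPM. In cluster 10 the libraries with enough cells spread from 212 to 571 CPM, so that its place above cluster 8, with 274 to 333 CPM, lay within the spread between libraries. The lowest mesenchymal levels were 44.0 CPM in the hypertrophic chondrocyte-like cluster 14, 47.8 CPM in cluster 7, 53.0 CPM in the osteoprogenitor-like cluster 9 and 56.0 CPM in the proliferative chondrocyte-like cluster 4. Tbx4 was also highest in cluster 10, at 88.0 CPM, and lowest in cluster 14, at 10.4 CPM. Its order between them differed. Clusters 8 and 1 held Tbx4 at 40.1 and 46.6 CPM, under clusters 11, 5, 2 and 13 at 66.7 to 69.3 CPM. Over the 19 clusters Pitx1 and Tbx4 had a Pearson correlation of 0.78, given as a description because clusters share libraries and depth. The genes most like Pitx1 of 9509 compared were 6330403K07Rik (0.87), Tceal9 (0.83) and Lmx1b (0.82), the last a dorsal limb homeobox factor. Those most like Tbx4 were Gpr27 (0.86), Igfbp7 (0.85) and Runx1t1 (0.85).

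Levels in cells of other types were taken as a reference. The myeloid immune-like cells, which should lack limb mesenchyme factors, held Pitx1 at 85.0 CPM, Shox2 at 126 CPM and Prrx1 at 247 CPM. Muscle-like cells held 35.6, 29.2 and 71.2 CPM of the same genes. Barcodes under 1000 UMIs held Pitx1 at 82.3 to 183 CPM and Prrx1 at 128 to 290 CPM over the 4 libraries. The lowest Pitx1 and Prrx1 levels among clusters lay at or under these values and are not read as expression. The reference was not a floor common to all clusters, since immune-like cells held Meis2 at 119 CPM and cluster 10 held it at 1.06 CPM. The part of free RNA in these levels was not tested.

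Isl1, a LIM homeodomain factor that acts upstream of the hindlimb bud, was concentrated in 1 cluster. It stood at 141 CPM in the unnamed cluster 7 (131 cells), with 174 CPM in the tdT+ library of collection 1, 117 CPM in that of collection 2 and 146 CPM in the tdT- library of collection 2. Every other cluster held 9.97 CPM or less, and cluster 10 held no Isl1 UMI among 38 cells. After each cell was thinned to 5000 UMIs, 48.4% of 128 cluster 7 cells kept an Isl1 UMI (95% exact binomial interval 39.5 to 57.4%, covering counting error only), against 4.35% of 46 immune-like cells (0.53 to 14.8%). Isl1 was itself the leading gene of cluster 7, followed by Nkain2, Mecom and Penk, so its height there describes the cluster. The genes most like it over clusters were Penk (0.77), Meis1 (0.69) and Lsamp (0.65).

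Meis1 and Meis2, TALE homeodomain factors of the proximal limb, were also highest in cluster 7. Meis1 reached 170 CPM there (149 to 191 CPM over libraries) and 77.5 CPM in the connective tissue fibroblast-like cluster 1. Meis2 reached 578 CPM in cluster 7 (491 to 712 CPM over libraries), 353 CPM in the interzone or articular-like cluster 2 and 204 CPM in cluster 1. In cluster 10, where Pitx1, Tbx4 and Shox2 were highest, Meis1 was at 2.12 CPM from 2 UMIs and Meis2 at 1.06 CPM from 1 UMI. Cluster 10 held 37 cells deep enough for thinning, and none kept a UMI of either gene, which allows a share of up to 9.49% with a UMI at this depth and sets no limit on the share that expresses them. Irx3 and Irx5, Iroquois factors of the proximal limb, also had their highest level in cluster 7, at 37.5 and 40.8 CPM. Hoxa11 was at 1.06 CPM and Hoxd11 at 0 in cluster 10, which carried Hoxa9 at 76.3 CPM and Hoxc10 at 110 CPM. Over clusters Meis1 and Meis2 correlated at 0.80, and Ndnf (0.84) and Gpm6b (0.82) were the genes most like Meis2 and Meis1.

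Detection was also compared cell by cell. Among other mesenchymal cells thinned to 5000 UMIs, Meis2 was detected in 76.5, 66.7, 74.2 and 72.5% of Isl1-positive cells in the tdT+ and tdT- libraries of collection 1 and then of collection 2 (17, 6, 31 and 40 cells). In Isl1-negative cells of those libraries it was detected in 20.6, 25.9, 25.5 and 32.2%. The Isl1-positive share was thus the higher in 4 of 4 libraries. Meis1 was mixed, in 35.3, 33.3, 16.1 and 50% of Isl1-positive against 19.1, 15.4, 19.1 and 20.2% of Isl1-negative cells, the lower in the tdT+ library of collection 2. Pitx1 went the other way, with 35.3, 0, 35.5 and 30% of Isl1-positive cells against 64.2, 67.9, 56.0 and 55.0% of Isl1-negative cells. Shox2 had the lower share in Isl1-positive cells of 4 of 4 libraries as well, at 33.3 to 47.5% against 50.8 to 66.0%. Tbx4 was lower in 3 of 4 libraries (0 to 22.6% against 21.7 to 30.2%) and Lhx9 in 3 of 4, with equal shares in the tdT- library of collection 1 (5 to 16.7% against 15.7 to 21.2%). Meis2 was found in 40.6 to 58.6% of Meis1-positive and 19.1 to 28.7% of Meis1-negative cells, and Tbx4 in 22.2 to 30% of Pitx1-positive and 16.9 to 27.6% of Pitx1-negative cells, the positive share being the higher in 4 of 4 libraries for each. These shares are descriptions without a test, since the cells of a library share its embryos.

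**Figure D1:**
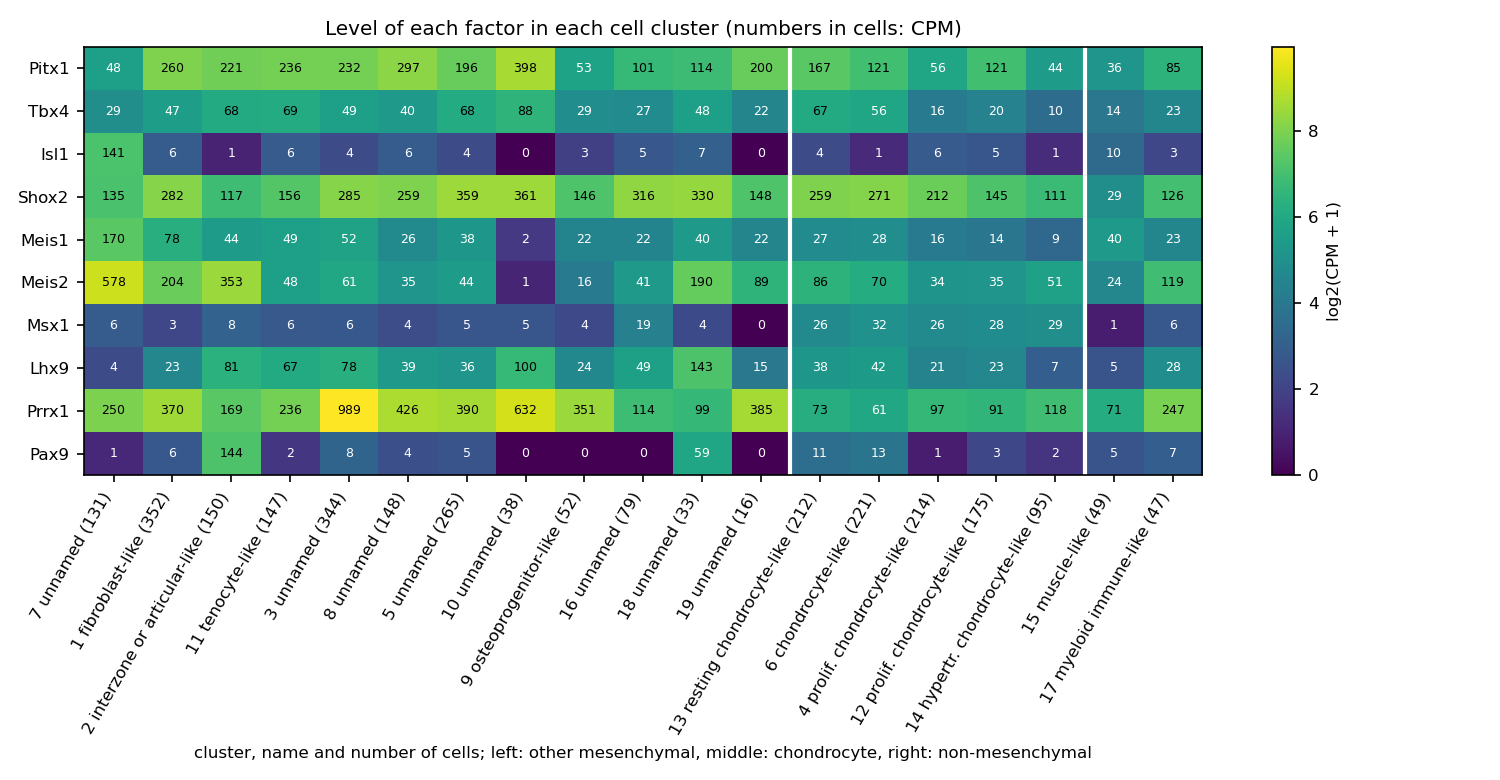
Level of each of the 10 factors (rows) in each of the 19 cell clusters (columns, with name and number of cells), coloured by log2(CPM + 1) and printed as CPM, with white lines between other mesenchymal, chondrocyte and non-mesenchymal clusters. Isl1, Meis1 and Meis2 peak in cluster 7, at 141, 170 and 578 CPM, Pax9 in cluster 2 and Prrx1 in cluster 3, while Msx1 is highest in the chondrocyte-like block.

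Shox2, a homeodomain factor needed for growth of the upper limb bones, stood at 361 CPM in cluster 10 and 359 CPM in the unnamed cluster 5 (led by Bmper, BC006965, Csrnp3 and Bmp5), and at 110.6 to 271 CPM in the chondrocyte-like clusters. Clusters 10 and 5 did not differ beyond the spread between libraries (316 to 405 CPM and 317 to 427 CPM). Ormdl3 (0.85), Sfxn2 (0.83) and Tbx15 (0.83) followed Shox2 most closely over clusters.

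Prrx1, a paired-type homeodomain factor of limb mesenchyme, was highest in the unnamed cluster 3 (344 cells, led by Epha3, with Alpl and Runx2 among its leading genes). It reached 989 CPM there, with 1034, 966, 986 and 888 CPM in the 4 libraries, above the 632 CPM of cluster 10. The chondrocyte-like clusters held 61.5 to 118 CPM, less than the immune-like cells. The genes most like Prrx1 were Hsd17b4 (0.91), Thbs2 (0.90) and Map2k6 (0.89).

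Pax9, a paired-box factor, was concentrated in the interzone or articular-like cluster 2, the joint-forming cells, at 144 CPM, and was one of its leading genes. The 4 libraries gave 247, 112, 189 and 76.2 CPM there. The shallow cluster 18 of 33 cells held 58.6 CPM, and every other cluster 13.1 CPM or less. Lhx9, a LIM homeodomain factor of distal progenitors, stood at 143 CPM in cluster 18, 99.6 CPM in cluster 10 and 80.6 CPM in cluster 2, and at 3.96 CPM in cluster 7. In thinned cells Lhx9 was detected in 27.8 to 47.1% of Pax9-positive and 13.8 to 18.8% of Pax9-negative cells.

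Msx1, a homeodomain factor of undifferentiated progenitors, was the only member with its highest levels in chondrocyte-like clusters. It stood at 25.95 to 32.0 CPM in all 5 of them, at 19.04 CPM in the shallow cluster 16 and at 7.66 CPM or less elsewhere. In the immune-like cells it was at 5.67 CPM from 5 UMIs. After thinning, 7.64 to 15.1% of cells in the chondrocyte-like clusters kept an Msx1 UMI, against 1.46% of the fibroblast-like cluster 1 (0.47 to 3.37%) and 2.17% of immune-like cells (0.06 to 11.53%). None of the chondrocyte-like intervals, which began at 3.64 to 10.65%, overlapped that of cluster 1, but all overlapped the wide interval of the 46 immune-like cells.

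Chondrocytes as a class held less of 9 members than other mesenchymal cells in 4 of 4 libraries, and more of Msx1. The levels of 8 of the 9 did not overlap between the classes, and only Shox2 overlapped, at 218 ± 25.1 against 256 ± 30.9 CPM (SD, n = 4 libraries). Such differences were common in this contrast. Among 9458 genes with a mean of at least 10 CPM, 45.1% were lower and 24.3% higher in chondrocytes in 4 of 4 libraries. No overlap was found for 53.7% of them, in the lower direction for 35.2% and in the higher direction for 18.5%. Isl1 lay under that limit on the mean. The difference was largest for Prrx1, at 88.6 ± 5.73 against 476 ± 107 CPM, a log2 difference of -2.39 ± 0.25 (SD). Pitx1 was at 101 ± 4.83 against 233 ± 37.6 CPM, Meis2 at 51.4 ± 8.98 against 147 ± 26.7 CPM and Meis1 at 19.9 ± 2.74 against 56.2 ± 13.2 CPM. Isl1 (3.77 against 14.02 CPM), Pax9 (6.05 against 16.9 CPM), Lhx9 (29.2 against 50.4 CPM) and Tbx4 (35.1 against 55.8 CPM) were lower too. Msx1 was at 26.2 ± 5.16 against 5.44 ± 0.80 CPM, a log2 difference of 2.07 ± 0.41. No test was made, since the classes were built from the same cells. The 9 lower members and Msx1 kept their direction in 4 of 4 libraries with coarser clusters and in cells of at least 3000 UMIs.

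**Figure D2:**
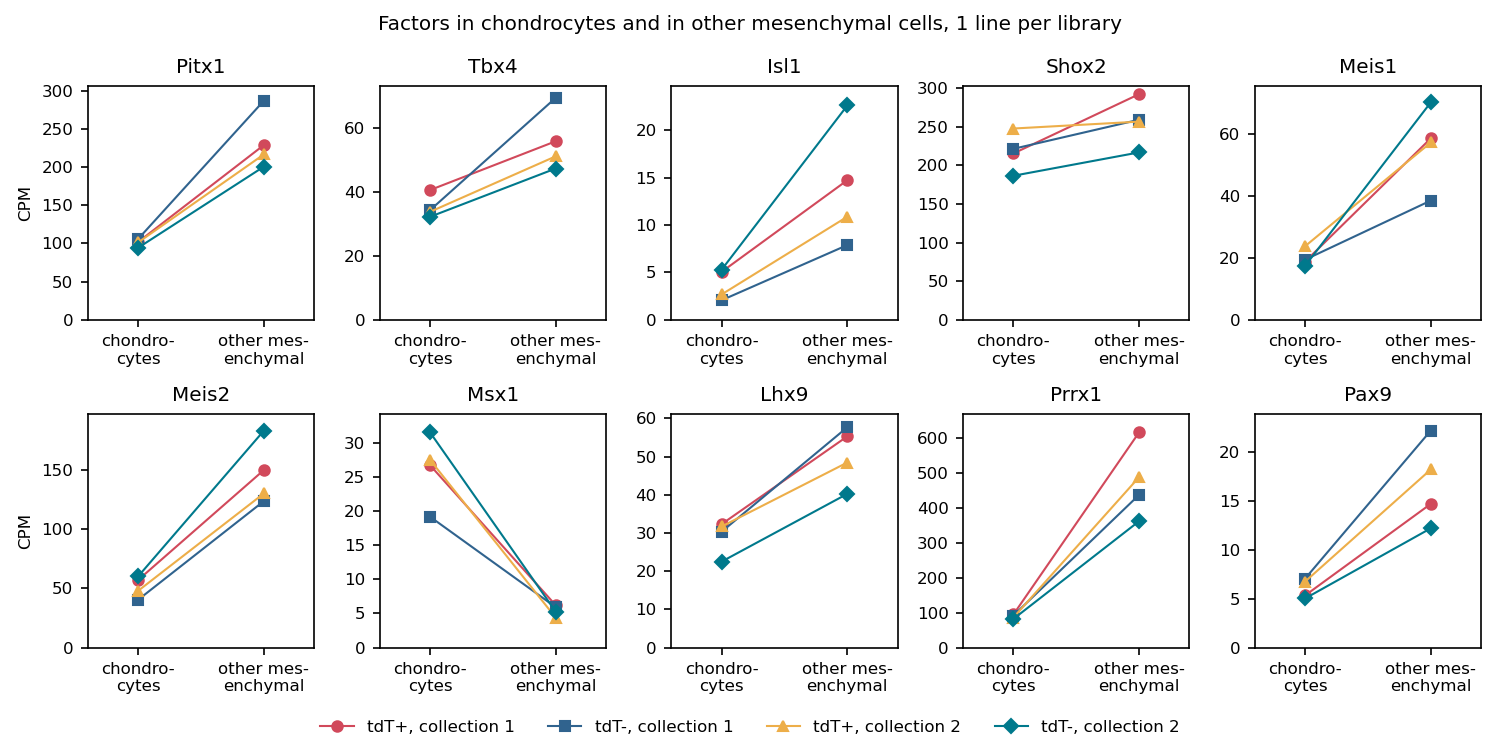
CPM of each factor (1 panel each, y axes from 0 and scaled by gene) in chondrocytes and other mesenchymal cells, with 1 line for each of the 4 libraries. All lines rise to the right but those of Msx1, which fall from 19.2 to 31.5 CPM in chondrocytes to 4.4 to 6.2 CPM in the other cells.

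The next question was whether the factors differed between cells of the Gli1 lineage and the rest. With all kept cells summed by library and condition (4 tdT+ against 4 tdT- sums, edgeR quasi-likelihood test with Benjamini-Hochberg adjustment), 1 of the 10 members passed an adjusted p of 0.05, where 2.24% of 14538 genes did. It was Prrx1. In collection 1 it was at 431 CPM in control and 495 CPM in Pan-Cart-p21MOE tdT+ cells, against 258 and 283 CPM in the tdT- cells. In collection 2 the tdT+ values were 457 and 316 CPM and the tdT- values 221 and 239 CPM. All 4 pools were higher in tdT+ and the groups did not overlap.

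Prrx1 averaged 425 ± 77.0 CPM in tdT+ and 250 ± 26.6 CPM in tdT- cells (SD, n = 4), and rose by 0.77 on the log2 scale (SE 0.13, edgeR adjusted p = 0.0207). With the embryo pool as a block the adjusted p was 0.00752. The call was lost without the tdT+ library (adjusted p = 0.283) or the control tdT+ cells (0.0727) or Pan-Cart-p21MOE tdT+ cells (0.0748) of collection 1, the control tdT- cells of collection 1 (0.0508), the control tdT+ cells of collection 2 (0.0657), or the tdT- library (0.112) or its control cells (0.0605) of collection 2. In sums over all cells, fewer cells of a type and less RNA per cell cannot be told apart, and chondrocytes, which held little Prrx1, made up 24.6 and 24.8% of tdT+ but 47.2 and 39.9% of tdT- cells.

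Within the classes the Prrx1 difference was smaller. In chondrocytes it was 0.02 on the log2 scale (SE 0.12), at 89.8 ± 6.74 against 90.2 ± 12.9 CPM. In other mesenchymal cells it was 0.45 (SE 0.11), at 557 ± 81.0 against 409 ± 44.5 CPM, higher in 4 of 4 pools with overlapping groups, and did not pass (edgeR adjusted p = 0.117), but with the pool as a block it did (adjusted p = 0.0229). Cluster 3, with the most Prrx1, held 25.5% of tdT+ and 10.9% of tdT- other mesenchymal cells. Compared cluster by cluster, Prrx1 was higher in tdT+ cells in 6 of 15 pairs of the same pool among other mesenchymal clusters and in 7 of 13 among chondrocyte-like ones. In all cells, myeloid immune markers (10 genes) summed to 4.25 to 5.64 CPM in tdT+ and 12.9 to 145 CPM in tdT- sums. The part of these differences in the Prrx1 result was not tested. Without clusters 16, 18 and 19 the adjusted p in all cells was 0.0168.

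The other 9 members did not pass in all cells. Shox2, the nearest, was at 258 ± 37.4 against 211 ± 33.4 CPM, higher in 4 of 4 pools with overlapping groups (log2 0.29, SE 0.11, edgeR adjusted p = 0.191), and passed with the pool as a block (adjusted p = 0.0428). The hindlimb factors Pitx1 (log2 0.13, SE 0.11) and Tbx4 (0.08, SE 0.10) were each higher in 3 of 4 pools. Isl1 was at 9.39 ± 4.81 against 10.7 ± 6.07 CPM, higher in tdT+ cells in both pools of collection 1 and lower in both of collection 2. Meis1 was higher in 4 of 4 pools (log2 0.32, SE 0.17) and Msx1 lower in 3 of 4 (-0.51, SE 0.25), neither past the threshold. In chondrocytes 0 of 9 members passed with edgeR, DESeq2 or limma-voom, where 0.0175% of 11402 genes did with edgeR, and 0 of 9 had an unadjusted p under 0.05, against 4.15% of genes. In other mesenchymal cells 0 of 10 passed with edgeR, where 0.925% of 13729 genes did, with 1, Prrx1, at an unadjusted p under 0.05 (10.6% of genes) and past the threshold with DESeq2 (adjusted p = 0.0212). Isl1 had too few chondrocyte counts to be tested there.

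The other limb patterning genes were counted in the same fit. In all cells 5 of 40 tested rose in tdT+ cells and 0 fell, where 2.24% of all 14538 genes were called. They were Tbx2 (log2 1.26), a T-box factor of the limb margins, Tbx15 (0.53), Zfhx3 (0.74), Prrx2 (0.49), the paralogue of Prrx1, and Twist2 (1.07), a mesenchymal bHLH factor. By list, 2 of 8 limb type and early bud factors, 1 of 14 proximal factors, 0 of 3 middle Hox genes, 0 of 1 distal Hox gene and 2 of 14 mesenchyme and dorsoventral factors passed. The median log2 difference of the 10 members was 0.22 and that of the 40 genes 0.27, beside -0.01 over all genes. Tbx5 was at 7.93 ± 2.61 against 13.6 ± 3.52 CPM (log2 -0.73, SE 0.26, edgeR adjusted p = 0.165). In other mesenchymal cells Tbx2, Zfhx3 and Twist2 were called, 3 of 37, and in chondrocytes 0 of 25, beside 0.925% and 0.0175% of all genes. Chondrocytes made up a smaller share of tdT+ than of tdT- cells, and the part of cell type in these calls was not tested. The genes of lowest p were tdt, the reporter, 3.74 higher on the log2 scale in tdT+ cells, Ssbp2 (0.64) and Lgi2 (1.41).

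**Figure D3:**
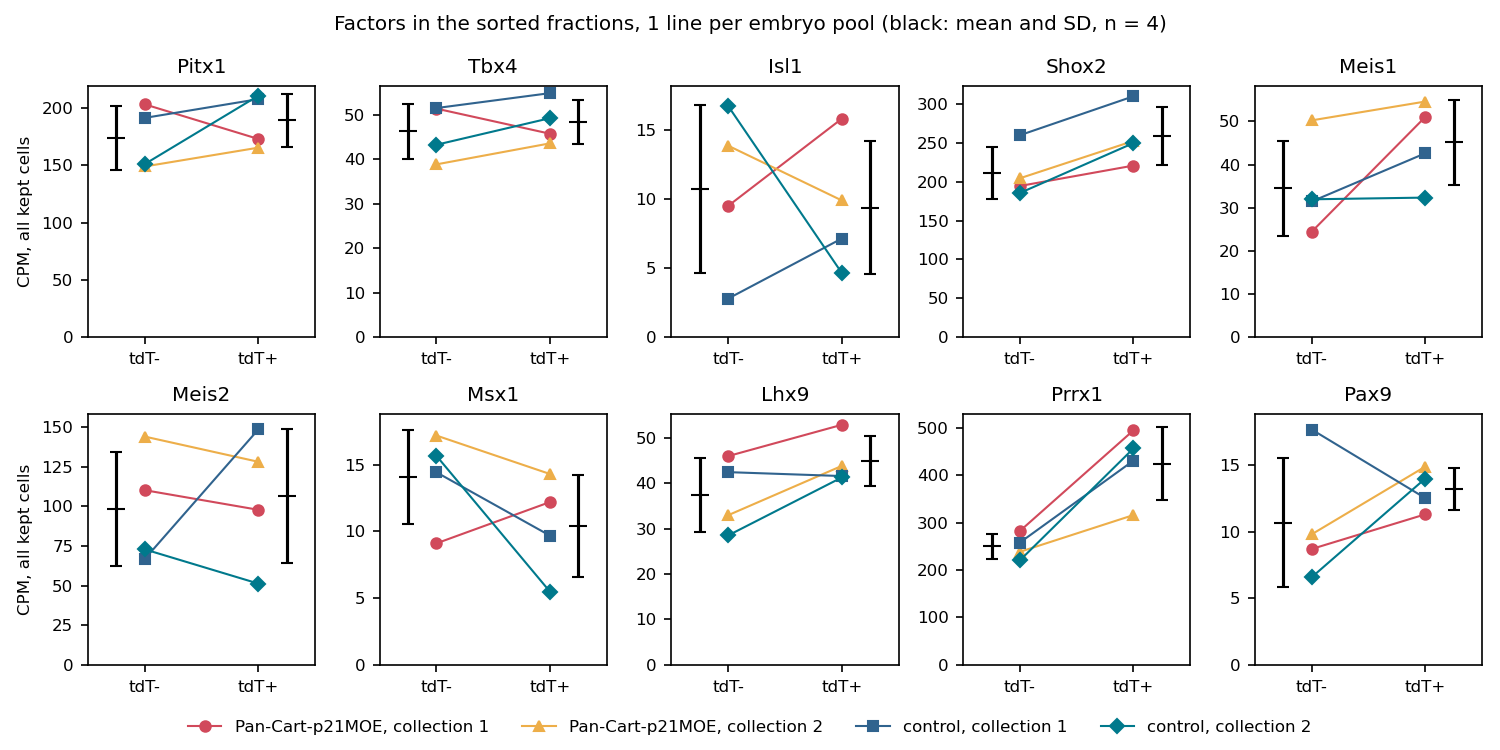
CPM of each factor (1 panel each, y axes from 0) in tdT- and tdT+ cells, all kept cells summed, with 1 line per embryo pool and black marks for the mean and SD of 4 pools. All 4 lines of Prrx1 rise, from 221 to 283 CPM to 316 to 495 CPM, and the lines of Isl1 and Meis2 cross.

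The effect of p21 on the factors was compared next. The targeted gene gave no check of the condition in chondrocytes, with Cdkn1a at 60.1 CPM in Pan-Cart-p21MOE and 55.5 CPM in control sums (log2 0.17, SE 0.24, edgeR adjusted p = 0.869). According to the study, most 3′ reads of both the reporter and the p21 transgene fall in WPRE, a stabilising element carried by both alleles. WPRE was 2.45 higher on the log2 scale in Pan-Cart-p21MOE chondrocytes (SE 0.39, edgeR adjusted p = 0.0196), at 1344 against 341 CPM, a level that sums reads of both transgenes. The reporter's own sequence, tdt, was at 10.6 against 11.2 CPM (log2 -0.26, SE 0.30, edgeR adjusted p = 0.827). In chondrocytes 1 of 9 tested members passed, where 0.509% of 11402 genes did.

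That member was Meis2. Pan-Cart-p21MOE chondrocytes held 71.7 and 53.8 CPM in the tdT+ and tdT- libraries of collection 1 and 52.9 and 73.6 CPM in those of collection 2. Control chondrocytes held 41.6, 36.9, 33.9 and 29.5 CPM in the same libraries. Every library was higher in the Pan-Cart-p21MOE cells and the groups did not overlap.

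Meis2 averaged 63.0 ± 11.2 CPM against 35.5 ± 5.09 CPM (SD, n = 4 sums from 2 pools, from 1050 and 311 UMIs). It rose by 0.85 on the log2 scale (SE 0.17, edgeR adjusted p = 0.0473), close to the threshold. Blocking on the library gave an adjusted p of 0.0678, and summing both fractions of a pool, 2 sums against 2, gave 0.167. The call was lost without any 1 library (adjusted p = 0.104 to 0.302) or any 1 of the 8 sums (0.0664 to 0.204), while the log2 difference stayed between 0.65 and 0.97. DESeq2 gave an adjusted p of 0.00302 and limma-voom 0.0345.

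By cluster, Meis2 stood highest in the resting chondrocyte-like cluster 13 of Pan-Cart-p21MOE embryos, at 117 CPM against 35.8 CPM in controls, higher in 4 of 4 libraries. It was at 77.4 against 53.2 CPM in cluster 6, 50.4 against 19.2 CPM in cluster 12, 69.0 against 16.8 CPM in the hypertrophic-like cluster 14 and 33.6 against 35.5 CPM in cluster 4. These levels sum the libraries. In all, 10 of 12 pairs of the same cluster and library were higher. Clusters 12 and 14 had only 1 library each with enough cells of both conditions for a pair, and clusters 6 and 4 had 3 each. With libraries pooled, cluster 13 made up 22.7% of Pan-Cart-p21MOE and 23.8% of control chondrocytes. Endothelial markers (7 genes) in chondrocytes summed to 168 to 247 CPM in Pan-Cart-p21MOE and 95.6 to 230 CPM in control sums, and muscle markers (9 genes) to 3.36 to 9.15 and 2.83 to 11.8 CPM. Barcodes under 1000 UMIs held Meis2 at 36.2, 28.6, 24.1 and 33.5 CPM in the 4 libraries, close to the control chondrocytes, and myeloid immune-like cells held 119 CPM. The part of other cell types and of free RNA in the Meis2 result was not tested.

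**Figure D4:**
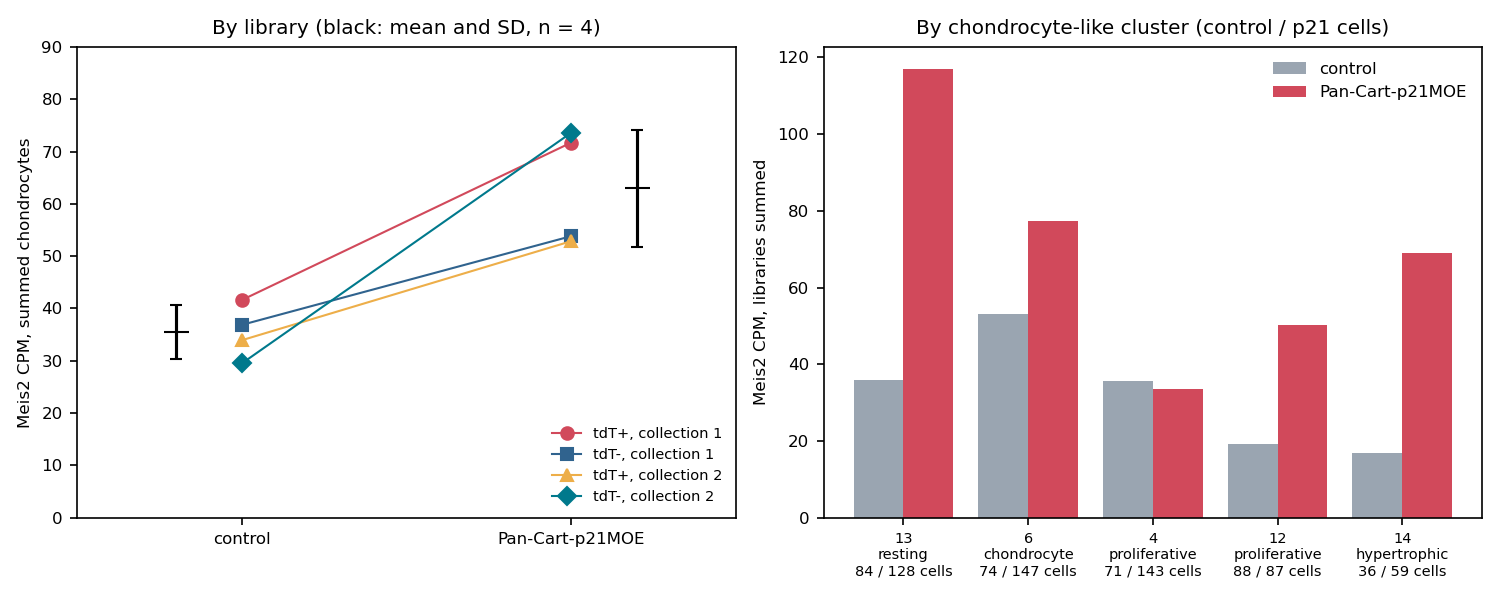
Left, Meis2 CPM in summed chondrocytes by condition, with 1 line per library and black marks for the mean and SD (n = 4); right, Meis2 CPM in each chondrocyte-like cluster by condition, libraries summed, with bars from 0 and the number of control and Pan-Cart-p21MOE cells below. All 4 lines rise, from 29.5 to 41.6 CPM to 52.9 to 73.6 CPM, and the widest gap of the bars is in the resting cluster, at 117 against 35.8 CPM.

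The remaining members did not pass in chondrocytes. Lhx9 was at 34.0 ± 6.16 against 24.7 ± 6.02 CPM, higher in 4 of 4 libraries with overlapping groups (log2 0.41, SE 0.20, edgeR adjusted p = 0.502). Pax9 was at 5.996 ± 1.85 against 4.50 ± 3.17 CPM, higher in 3 of 4 (log2 0.57, SE 0.49), and so was Msx1 (log2 0.49, SE 0.28). Pitx1 (-0.07, SE 0.14), Tbx4 (-0.10, SE 0.13), Shox2 (-0.02, SE 0.13), Meis1 (-0.01, SE 0.27) and Prrx1 (0.11, SE 0.12) differed by less than their standard errors. None of the 25 other limb patterning genes tested in chondrocytes passed, and the median log2 difference was 0.11 over the 9 members, 0.26 over these genes and -0.0023 over all genes. The genes of lowest p in chondrocytes were Ccn2 (log2 -1.51), Matn3 (-1.24) and Hist1h1b (-1.54).

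In all cells 0 of 10 members passed by condition with edgeR, DESeq2 or limma-voom, where 0.0344% of 14538 genes did with edgeR and 7.06% had an unadjusted p under 0.05. In other mesenchymal cells 0 of 13729 genes passed with edgeR (0%), 643 (4.68%) had an unadjusted p under 0.05 and DESeq2 called 6, none of them a member. Meis1 had the only unadjusted p under 0.05 of the members in each. In other mesenchymal cells it was at 62.2 ± 17.4 against 44.8 ± 8.57 CPM, higher in 3 of 4 libraries (log2 0.53, SE 0.19, edgeR unadjusted p = 0.0203, adjusted p = 1.00). Isl1 (17.3 ± 2.74 against 12.7 ± 13.7 CPM) varied more between control sums than between the conditions. With libraries pooled, cluster 7, with the most Isl1, Meis1 and Meis2, made up 9.11% of Pan-Cart-p21MOE and 4.49% of control other mesenchymal cells. These shares mix condition with collection and sex. In the 4 libraries 234, 101, 663 and 784 kept cells were Pan-Cart-p21MOE and 233, 259, 280 and 214 control. Only 1 library held enough cells of both conditions in cluster 7 to compare them. Whether the p21 effect differed between fractions was tested as an interaction over all cells, and 0 of 15414 genes passed with edgeR (557, or 3.61%, at an unadjusted p under 0.05, and 7 with DESeq2). Of the members, 0 of 10 had an unadjusted p under 0.05 and 0 passed with DESeq2. In data simulated for this comparison (15221 genes) the interaction test found 22% of genes changed by 1 on the log2 scale.

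The factors were also compared between cells with and without a UMI of distal Hox genes. Hoxa13 and Hoxd13, which mark the foot plate, were rare, at 5.52 CPM or less and at 0.90 CPM or less over clusters. Barcodes under 1000 UMIs held Hoxa13 at 1.79, 1.74, 0.66 and 2.44 CPM in the 4 libraries, against 1.35, 1.79, 1.64 and 2.24 CPM in kept cells. In the tdT- library of collection 2 it was detected in 4.65% of 43 immune-like cells and in 5.03% of chondrocytes and 3.05% of other mesenchymal cells, although the immune-like cluster was shallower (median of 11376 UMIs, against 22584 for kept cells of that library). Immune-like cells, which should lack Hoxa13, thus held it at a share like that of mesenchymal cells in that library, though from few cells. Hoxd13 was at 0 CPM in the immune-like cluster. Hox13-positive below means only that a cell held a UMI, not that it was distal. A UMI of either gene was held by 103 mesenchymal cells (18, 12, 34 and 39 in the 4 libraries), and they were deeper than the rest, with median UMI counts of 29977 to 43247 against 15404 to 26901. Blocked by library, 0 of 10 members passed between Hox13-positive and Hox13-negative mesenchymal cells by edgeR, where 0.0827% of 13309 genes did (4 members at an unadjusted p under 0.05, against 7.21% of genes). DESeq2 called 1 member, Pax9, and limma-voom 0.

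Pax9 was higher in Hox13-positive cells, at 21.4, 19.4, 45.2 and 27.6 CPM in the 4 libraries against 11.4, 15.02, 13.02 and 7.71 CPM. The groups did not overlap (log2 1.39, SE 0.27, edgeR adjusted p = 0.162, DESeq2 0.0108). Pax9 (144 CPM) and Hoxa13 (5.52 CPM) were both highest in the interzone or articular-like cluster 2. The part of this cluster in the Pax9 difference was not tested. Meis1 was lower in 4 of 4 libraries, at 32.7, 12.9, 36.2 and 13.8 CPM against 48.1, 30.8, 47.7 and 48.9 CPM (log2 -0.93, SE 0.25, adjusted p = 0.392). With Hox13 status read after thinning to 5000 UMIs, which left 21 positive cells, Meis1 was lower by 3.07 on the log2 scale and passed (edgeR adjusted p = 0.00977). Those 21 cells were 2 to 9 per library, against 2427 negative cells in all, so the positive sums were small. That fit also called more genes than the main one. In the main fit Isl1 (-1.19, SE 0.36) and Meis2 (-0.38, SE 0.16) were also lower without passing. Pitx1 (-0.16, SE 0.17) and Tbx4 (0.21, SE 0.17) lay near 0. Chondrocyte-like cells made up 38.9, 58.3, 26.5 and 56.4% of Hox13-positive mesenchymal cells in the 4 libraries. In Hox13-negative cells they made up 24.2, 47.8, 25.1 and 42.6%. Chondrocytes held less Meis1, Meis2 and Isl1 than other mesenchymal cells, and the part of this in the lower levels was not tested. Hoxa11 was the only other limb patterning gene called of 37, 1.55 higher on the log2 scale, and Spp1, a gene of mature cartilage and bone, had a log2 difference of -3.27. Among 45 Hox13-positive chondrocytes 0 of 9 members passed with edgeR, DESeq2 or limma-voom, where 0.0353% of 11340 genes did with edgeR and 1 member had an unadjusted p under 0.05 (5.14% of genes). Meis1 was lower by 2.04 there (SE 0.49, adjusted p = 0.323), from 10 UMIs against 490, with no overlap.

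Because Hox13-positive cells were few, the split was repeated with Hoxa11 and Hoxd11, which mark the middle segment, an alternative chosen after seeing the data. Hoxa11 stood at 33.5, 25.2, 18.5 and 15.9 CPM in barcodes under 1000 UMIs of the 4 libraries and at 30.01, 26.9, 29.7 and 20.03 CPM in kept cells. In the tdT- library of collection 2 it was detected in 20.9% of 43 immune-like cells, against 26.6% of chondrocytes and 25.95% of other mesenchymal cells. A UMI of these genes therefore does not by itself mark a middle-segment cell. Over clusters Hoxa11 ranged from 1.06 CPM in cluster 10 to 67.7 CPM in cluster 2. The split gave 875 positive and 1797 negative mesenchymal cells, the positive again deeper (medians of 22649 to 32037 against 14497 to 24898). Here 1 of 10 members passed, where 0.683% of 15078 genes did. Meis2 was lower in Hox11-positive cells in 4 of 4 libraries, at 97.4, 55.9, 79.4 and 110.5 CPM against 139.7, 106.3, 122.5 and 139.1 CPM, with overlap between libraries (log2 -0.56, SE 0.08, edgeR adjusted p = 0.0196). The call was lost without the tdT+ library of collection 1 (adjusted p = 0.0920) or of collection 2 (0.122), without the block (0.771) and with status read after thinning (log2 -0.16, adjusted p = 0.961). Pax9 was higher in 4 of 4 libraries (log2 1.51, SE 0.32, edgeR adjusted p = 0.0846) and Msx1 as well (0.57, SE 0.13, edgeR adjusted p = 0.107). Neither passed the threshold with edgeR, though Pax9 passed with DESeq2 (adjusted p = 0.00480). Pax9, like Hoxa11, was highest in cluster 2, at 144 CPM. Chondrocyte-like cells made up 27.8, 47.9, 29.7 and 44.9% of Hox11-positive and 23.1, 48.3, 22.8 and 42.4% of Hox11-negative cells in the 4 libraries. The part of cell type in these differences was not tested. Col10a1, the collagen of hypertrophic chondrocytes, had the lowest p of all genes (log2 -2.54). Of 38 other limb patterning genes 2 were higher, Hoxa10 (log2 0.67) and Hoxd10 (2.17), and 3 lower, Tbx18 (log2 -0.59), Irx3 (-1.46) and Hoxc10 (-0.45).

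Within chondrocytes 0 of 9 members passed for Hox11 with edgeR, where 0.0255% of 11785 genes did, and 4 had an unadjusted p under 0.05, against 6.67% of genes. DESeq2 called 1 member, Meis2. It was at 33.2 ± 7.72 CPM in Hox11-positive and 66.9 ± 18.8 CPM in Hox11-negative chondrocytes (log2 -1.07, SE 0.21, adjusted p = 0.175), lower in 3 of 4 libraries. Pitx1 was at 118 ± 6.73 against 89.8 ± 8.65 CPM and Pax9 at 8.65 ± 2.82 against 4.06 ± 1.05 CPM, both higher in 4 of 4 libraries without overlap (adjusted p = 0.373 and 0.522). Lhx9 was higher in 4 of 4 libraries with overlapping groups (log2 0.51, SE 0.14, adjusted p = 0.428).

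**Figure D5:**
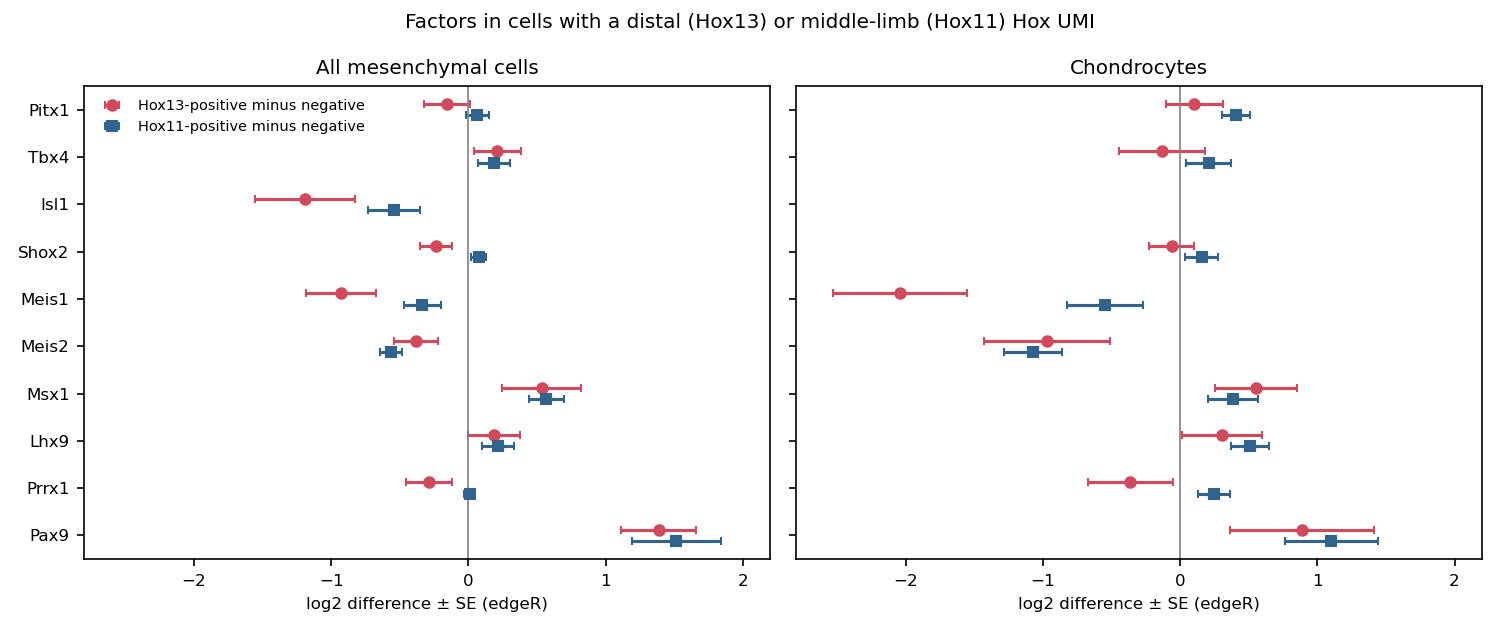
log2 difference of each factor between cells with and without a UMI of Hoxa13 or Hoxd13 (red circles) or of Hoxa11 or Hoxd11 (blue squares), with bars of 1 SE from edgeR, for all mesenchymal cells (left) and chondrocytes (right, Isl1 not tested). Meis1 and Meis2 lie to the left of 0 and Pax9 and Msx1 to the right in both panels and both splits, and only Meis2 in the Hox11 split of all mesenchymal cells passed the threshold.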

How the data were processed

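Hindlimb cells were sequenced with 10x Genomics 3′ chemistry, and the deposited values are UMI counts per gene and barcode that the authors made with Cell Ranger 7.2.0 on GRCm38 with the transgenes added. Whether intronic reads were counted is not given in the sources used here, and the authors' background removal and doublet calls were not repeated. The 4 libraries held 11945062 to 39435830 UMIs. Cells with at least 1000 UMIs, 500 genes and at most 10% mitochondrial UMIs were kept, and the 5% of highest doublet score in each library were removed among cells of at least 3000 UMIs. Sex was called from at least 2 UMIs of Xist or 4 Y-linked genes with an 80% share, and gave the condition by the study's pooling. Clusters came from 2000 variable genes, 30 components and 15 neighbours (resolution 1; scanpy 1.11.5, leidenalg 0.10.2, Python 3.11.15), without the 10 factors and 279 cell cycle genes, so differences in cell types from the study may come from rebuilt names.

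Raw counts were summed per library and condition into 8 sums and tested with edgeR 4.0.16 (quasi-likelihood, TMM, filterByExpr, Benjamini-Hochberg threshold 0.05; R 4.3.3) over all genes. DESeq2 1.42.0, limma-voom (limma 3.58.1), other scaling, no filter on low counts, deeper cells, blocks, pool sums and leaving out each library or sum were alternatives. Hox-positive cells had at least 1 UMI, and the library was a block. Named genes were the 10 factors, reference genes and transgenes, called genes of the other limb patterning lists (at most 6 of largest change), the 3 most alike per factor (Pearson correlation of log2(CPM + 1), mean of at least 10 CPM) and the 3 of lowest p. The members and lists were chosen with earlier results of these data known. All tests were checked on simulated data, drawn with a common spread for all genes and no link between sums of a pool or library. Changes of 1 log2 unit were recovered for 84.8 to 96.9% of altered genes in the fraction and condition comparisons and 22% in the interaction. For Hox13 the shares were 53.1% and 30.3% and for Hox11 92.6% and 86.6% (all mesenchymal cells, chondrocytes). False calls made up 1.6 to 7.04%. These rates do not cover embryos shared between sums. The fractions of a pool share embryos, which pairs them by design, and their deviations correlated at 0.0834, 0.159, 0.289 and 0.0746 over 15414 genes. The conditions of a library correlated at 0.079 to 0.289. Intervals are 95% exact binomial and, like the limit of 3 counts for a count of 0, cover counting error only.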

Additional observations from a re-analysis of the deposited data

Results flagged for a closer look

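Of 120 groups of 4 sums examined for the 10 factors, 8 held a sum far from the other 3 by Dixon's criterion, and chance gives about 1 in 20. In all cells, Meis1 was at 42.6 CPM in the control tdT+ sum of collection 1 (other controls 31.5 to 32.4) and at 24.4 CPM in the Pan-Cart-p21MOE tdT- sum of collection 1 (others 50.3 to 54.6). Lhx9 was at 28.5 CPM in the control tdT- sum of collection 2 in all cells (others 41.3 to 42.4) and at 15.7 CPM in its chondrocytes (others 27.5 to 27.9). Tbx4 was at 43.4 CPM in control tdT+ chondrocytes of collection 1 (others 34.1 to 34.8). In other mesenchymal cells of the Pan-Cart-p21MOE tdT- sum of collection 1, Pitx1 was at 294 CPM (others 201 to 209) and Tbx4 at 70.3 CPM (others 46.2 to 49.7). Pax9 was at 28.4 CPM in control tdT- other mesenchymal cells of collection 1 (other tdT- sums 12.3 to 13.6).

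For a pair of factors the difference between Pan-Cart-p21MOE and control cells had opposite signs in the fractions, in both collections. Shox2 in chondrocytes had log2 differences of -0.29 and -0.16 in tdT+ and 0.21 and 0.16 in tdT- cells, a gap of -0.41. Lhx9 in other mesenchymal cells had 0.33 and 0.11 in tdT+ and -0.07 and -0.08 in tdT- cells, a gap of 0.30. All 10 factors were screened for such signs in both cell classes, by condition and by fraction, and some are found by chance in so many. These gaps within the cell classes were not tested.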

How the results depend on the processing

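For 20 results on single factors, those with an unadjusted p under 0.05 in the main edgeR fit, 285 alternatives were made. Of these, 235 lay on the same side of the threshold, 25 lost and 25 gained the call, and 0 turned the direction. They were refits of largely the same counts, picked for a low p, so the 0 says little about direction. Other results on single factors were not counted here. Counts over all genes moved more. Comparisons are listed in 1 order: tdT+ against tdT- (all cells, chondrocytes, other mesenchymal), Pan-Cart-p21MOE against control (the same 3 cell sets), their interaction, Hox13 and Hox11 (each all mesenchymal, chondrocytes). With no filter on low counts the calls were 1787, 176, 852, 453, 405, 186, 181, 288, 106, 594 and 233. With DESeq2 they were 701, 10, 262, 59, 115, 6, 7, 47, 22, 115 and 16. Leaving out a library or sum gave 1 to 862, 0 to 14, 15 to 167, 0 to 7, 8 to 53, 0 to 1, 0 in each case, 1 to 28, 0 to 3, 16 to 111 and 0 to 7.

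With the replicate block the fraction calls were 478 in all cells, 6 in chondrocytes and 242 in other mesenchymal cells, the condition calls 2 in all cells and 38 in chondrocytes, and the interaction 1. The block gained Prrx1 in other mesenchymal cells and Shox2 in all cells and lost Meis2 in chondrocytes by condition. Summing the fractions of a pool left 0 condition calls in all cells and 6 in chondrocytes. Limma-voom gave 8 condition calls in all cells, 5 and 0 for Hox13 and 11 for Hox11 in chondrocytes. Without a block Hox13 gave 2 and 2 and Hox11 0 in all mesenchymal cells. Requiring 2 UMIs gave 26 and 14 for Hox13 and 168 and 12 for Hox11, and status after thinning gave 88 and 13, and 10 and 0. For each of these changes the cause was not tested. The Hox11 split and the fits without clusters 16, 18 and 19 were chosen after seeing the data. Depth limits the factors of few UMIs, Isl1 and Pax9 in chondrocytes and every factor in Hox13-positive cells.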

Other observations

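Several other limb patterning genes had their highest level in the clusters where a factor peaked. Zfhx3, a homeodomain factor listed as proximal, reached 799 CPM in cluster 3, where Prrx1 peaked. Twist1 reached 368 CPM in cluster 10, where Pitx1 and Tbx4 peaked. Osr2, an odd-skipped factor of developing joints, reached 135 CPM in the interzone or articular-like cluster 2 with Pax9, and Hoxa11 was highest there too, at 67.7 CPM. Osr2 was among the markers that named cluster 2, so its height there is part of the naming. Irx3 and Irx5, highest in cluster 7, had their next level in the hypertrophic chondrocyte-like cluster 14, at 21.1 and 25.8 CPM, where Meis1 was at 9.31 CPM. Osr1 (82.0 CPM) and Nr2f2 (142 CPM) were highest in the connective tissue fibroblast-like cluster 1, for whose name Osr1 was likewise a marker. These levels are descriptions of clusters without a test.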
